A study of Homo sapiens with 12 samples.

Results

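The 10 genes RGS2, RGS3, RGS4, RGS5, RGS10, RGS11, RGS12, RGS16, RGS17 and RGS19 encode regulators of G protein signalling and were followed among 22784 gene symbols measured by RNA-seq in SK-UT-1 cells. SK-UT-1 is a human uterine leiomyosarcoma (uLMS) line, a malignant tumour line of uterine smooth muscle, and a single line stands here for the tumour type. Cells of the vehicle group received DMSO, and the other groups received the BET protein inhibitor JQ1 or I-BET 762 at 5 µM, with RNA taken after 48 h. The values cover 3 DMSO, 4 JQ1 and 3 I-BET 762 libraries, named here by the replicate numbers 13 to 15, 17 to 20 and 21 to 23 that the labels give them. The members were picked by name from a list drawn up with results of these data in view, and the list does not say which values chose them. Their values are therefore given as a description, with no p-value printed for any of them. Counts of members past the thresholds used for every gene, or past a limit on p alone, are part of that description. All 10 reached the level needed for testing, a normalized count of at least 10 in at least 3 libraries, which 14839 symbols reached. RGS11 reached it through its 3 DMSO libraries only.

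RGS proteins carry a shared RGS domain that speeds the hydrolysis of GTP by active G alpha subunits, and so shortens the signal of G protein-coupled receptors. In smooth muscle, receptors that couple to Gq, Gi and the G12 class drive contraction and growth, and RGS2, RGS4 and RGS5 are well known brakes on them. The family falls into small RGS proteins of the R4 class (RGS2, RGS3, RGS4, RGS5 and RGS16), the RZ class (RGS17, RGS19 and RGS20), the R12 class (RGS10, RGS12 and RGS14) and the R7 class (RGS6, RGS7, RGS9 and RGS11). BET proteins bind acetylated histones and recruit the transcription machinery. JQ1 and I-BET 762 both carry a triazole fused to a diazepine ring, which in JQ1 is joined to a thiophene and in I-BET 762 to a benzene ring, and they differ in the side chain, an ester in JQ1 and an amide in I-BET 762.

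The number of reads assigned to genes per library lay between 35564585 and 38899932 for DMSO, between 35691651 and 39658990 for JQ1, and between 37733034 and 38404992 for I-BET 762. At these depths 3 reads, the upper limit that a count of 0 allows, correspond to 2.73 to 3.30 normalized counts, and this limit covers counting error only. JQ1 library 18 stood apart from the other JQ1 libraries, their chi-square per gene being 20.6 to 22.1, while the other pairs of JQ1 libraries gave 5.38 to 15.3, DMSO pairs 2.77 to 7.32 and I-BET 762 pairs 3.34 to 5.21. Without it 6 members still passed the thresholds described below with JQ1, RGS5 (−0.60) in place of RGS16 (0.52). Of all 14839 genes tested, 5192 to 5409 passed with JQ1 when any 1 library was left out. Without JQ1 library 18 the log2 difference was 0.90 for RGS2, −0.95 for RGS3, −0.28 for RGS4 and 0.74 for RGS10. It was 0.30 for RGS12, 0.26 for RGS17 and −1.17 for RGS19. RGS11 had 0 reads in JQ1 library 18 and at most 2 in the other 3 JQ1 libraries. The line's smooth muscle label was checked on marker genes. ACTA2, the smooth muscle actin, had a mean of 7071 normalized counts with DMSO, TAGLN 1599 and CALD1 9439, whereas ACTG2 and the smooth muscle co-activator MYOCD stayed below 2 normalized counts in every library. MYH11 was not analysed here. The sum of the 9 of 10 smooth muscle markers with values was 20502 to 21137 normalized counts with DMSO, 10662 to 11270 with JQ1 and 11822 to 12374 with I-BET 762. ACTA2 and CALD1 carry most of that sum. SMTN, which stood above TAGLN in every group, went the other way, with means of 2324, 2644 and 2657 in the same order of groups. The sum of 6 epithelial markers, led by the keratin KRT19, also moved, from 1231 to 1289.7 with DMSO to 517 to 612 with JQ1 and 507 to 547 with I-BET 762. Leukocyte and endothelial markers summed to at most 37.0 and 7.40, and PTPRC, which defines leukocytes, was at 0 or 1 read. The part of these markers in the RGS values was not tested, and in bulk RNA fewer cells of a type and less RNA per cell cannot be told apart.

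The promoters shown belong to RGS genes with a single RefSeq start site that passed the thresholds described below in at least 1 inhibitor comparison. Levels are counted per gene, so a level need not come from the start site shown. RGS2 and RGS16, members of the R4 class, were higher with JQ1, and RGS9 and RGS14, which are RGS genes outside the list of members, were lower with both inhibitors. Each is the run of 250 bases before the start site in RefSeq on GRCh38.p14, written 5′ to 3′ on the gene's strand, and capitals mark a GC box (GGGCGG on either strand). None of these windows touches a Gencode exon. The RGS9 window lies inside its gene in Gencode V44 (chr17:65100812-65227703, plus strand, 12 transcripts), beyond the first base of the gene.
RGS2 (chr1:192808789-192809038, plus strand): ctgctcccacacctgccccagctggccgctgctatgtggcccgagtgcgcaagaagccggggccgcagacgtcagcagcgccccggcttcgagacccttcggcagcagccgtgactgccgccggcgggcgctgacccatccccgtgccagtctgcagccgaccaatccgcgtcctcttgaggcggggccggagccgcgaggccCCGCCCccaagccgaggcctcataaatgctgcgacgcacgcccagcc
RGS16 (chr1:182604390-182604639, minus strand): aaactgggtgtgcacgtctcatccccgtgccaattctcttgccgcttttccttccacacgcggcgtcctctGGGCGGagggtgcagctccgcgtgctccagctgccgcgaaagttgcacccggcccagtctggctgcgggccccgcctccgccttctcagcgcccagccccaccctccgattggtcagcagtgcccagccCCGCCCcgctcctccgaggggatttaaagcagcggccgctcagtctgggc
RGS9 (chr17:65137120-65137369, plus strand): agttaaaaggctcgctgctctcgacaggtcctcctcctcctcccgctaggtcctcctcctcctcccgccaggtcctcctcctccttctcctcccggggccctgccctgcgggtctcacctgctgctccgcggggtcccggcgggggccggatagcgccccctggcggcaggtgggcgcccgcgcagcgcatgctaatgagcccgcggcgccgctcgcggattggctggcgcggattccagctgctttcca
RGS14 (chr5:177357674-177357923, plus strand): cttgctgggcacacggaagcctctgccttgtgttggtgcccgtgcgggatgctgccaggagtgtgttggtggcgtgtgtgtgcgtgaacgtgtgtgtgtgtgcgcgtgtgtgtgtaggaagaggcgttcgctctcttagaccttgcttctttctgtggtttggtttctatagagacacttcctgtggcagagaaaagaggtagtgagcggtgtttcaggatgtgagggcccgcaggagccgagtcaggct

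The RGS2 window holds 1 GC box, 47 bases before the start, and RGS16 holds 2, at 179 and 50 bases, while the RGS9 and RGS14 windows hold none. RGS19 and RGS3, which were lower with both inhibitors, also hold GC boxes, RGS19 with 6 and 4 in its 2 windows and RGS3 with 1 in each of 3 windows, and no relation with direction was tested. GC content was 72.8% for RGS2, 68.4% for RGS16, 71.6% for RGS9 and 56.8% for RGS14, against a median of 58.0% over the 35116 promoter windows in RefSeq. In all, 5 motifs were searched on both strands: the E-box CACGTG, the CRE TGACGTCA, the AP-1 site TGACTCA, the GC box GGGCGG and TATAAA. No motif is contained in another, and both strands of CACGTG and TGACGTCA read alike. For the members, 9 of the 10 genes had 23 windows in all, and RGS11 had none. A GC box was present in 12 of these 23 windows and in 42.6% of all windows. The E-box was present in 2 of 23, in 1 window each of RGS3 and RGS19, and in 6.34% of all windows. TATAAA was present in 2 of 23, and in RGS4 it stood 30 bases before 1 of its start sites, against 10.7% of all windows. The CRE (1.65% of all windows) and the AP-1 site (4.2%) were in none of the 23 windows. These counts describe letters in a fixed window and not binding.

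Levels within the family spanned more than 3 orders on a log10 scale. Per kilobase of exon in Gencode V44, RGS4 was the highest member with DMSO at 3875 ± 235 normalized counts per kb (SD, n = 3). RGS10 followed at 837 ± 27.7, RGS5 at 337 ± 18.5, RGS19 at 186 ± 3.88, RGS3 at 178 ± 9.32 and RGS12 at 119 ± 7.68. RGS2 stood at 78.4 ± 19.0, RGS11 at 14.3 ± 1.32, RGS16 at 8.41 ± 0.457 and RGS17 at 1.18 ± 0.195. In that order the ranges of neighbouring genes were apart with DMSO except for RGS19 and RGS3. With JQ1 the ranges of RGS5 and RGS2, of RGS2 and RGS12, and of RGS3 and RGS19 overlapped, and with I-BET 762 those of RGS2 and RGS3. RGS4 made up 67.3% to 69.7% of the members' summed level per kb in the DMSO libraries, 58.2% to 62.9% with JQ1 and 54.9% to 55.5% with I-BET 762. RGS10 made up 14.4% to 15.1%, 23.8% to 28.5% and 26.9% to 28.3% in the same order. RGS11 moved from above RGS16 and RGS17 with DMSO to below both with either inhibitor. RGS2 and RGS19 also changed places, RGS19 being above RGS2 with DMSO (182 to 189 against 58.9 to 97.0) and below it with JQ1 (72.0 to 107 against 138 to 215).

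**Figure D1:**
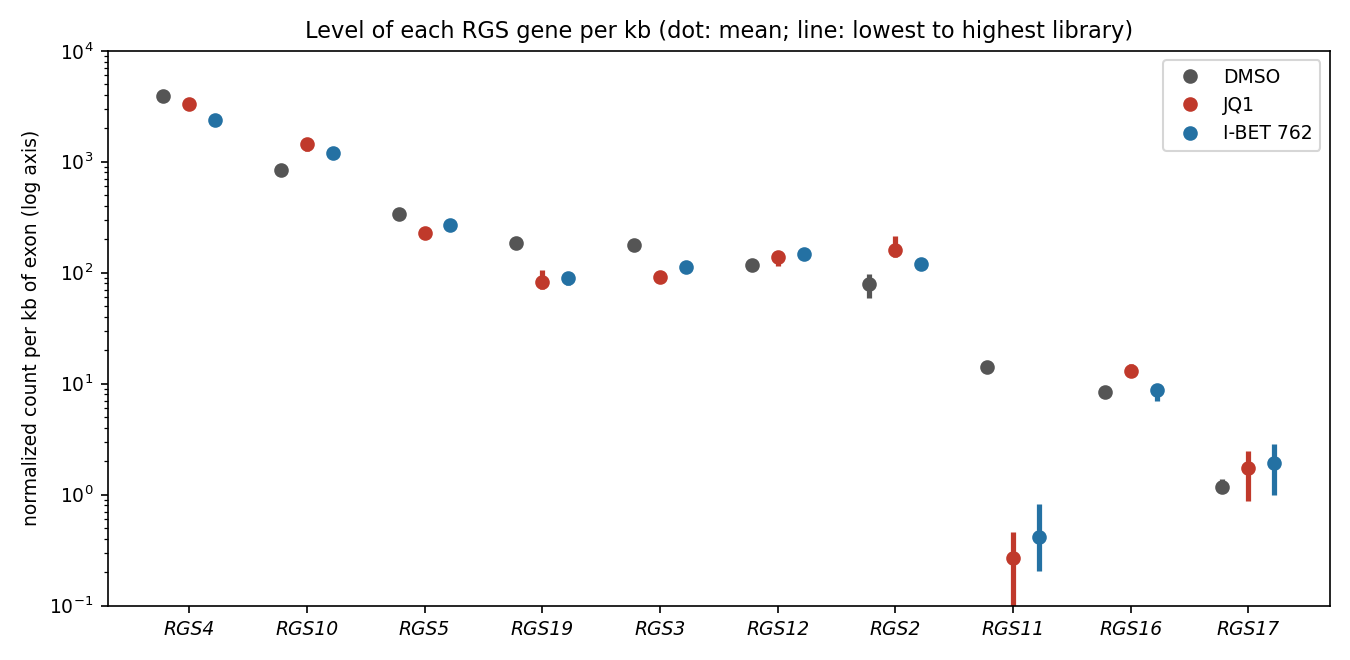
Normalized counts per kb of exon (log axis) for the 10 RGS genes, ordered by their DMSO level, with dots for group means and lines from the lowest to the highest library; a JQ1 library with 0 reads of RGS11 is drawn at the floor of the axis. RGS4 and RGS10 stand highest in all 3 groups, and RGS11 drops from 14.3 with DMSO to below 1 with either inhibitor.

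A gene was called when the limma test on all genes gave a Benjamini-Hochberg adjusted p under 0.05 and the fold change was over 1.5, a log2 difference beyond 0.585. Differences are on the scale of log2 of the normalized count plus 1 and are given with the standard error (SE) of the fit. With JQ1, 6 of the 10 members passed these thresholds, 3 higher and 3 lower. Of all 14839 genes tested 36.1% passed, 13.3% higher and 22.8% lower. With I-BET 762, 5 members passed, 1 higher and 4 lower, beside 26.9% of all genes, 8.96% higher and 17.9% lower. RGS11, tested through DMSO only, had to be lower, and without it 2 members were lower with JQ1 and 3 with I-BET 762. Nothing is read from these counts, since the members were selected from these data. The ranges of the libraries did not overlap for 7 members with JQ1, which held for 68.4% of all genes, and for 8 with I-BET 762, which held for 71.0%. The median difference over the members was −0.00 with JQ1, the same with RGS11 at its lower bound, where the median of all genes was 0.01, and −0.14 with I-BET 762, where it was −0.00. Both comparisons use the same 3 DMSO libraries. Whether the libraries of a group came from separate cultures is not stated in the labels, so errors and p-values measure the spread between these libraries only.

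**Figure D2:**
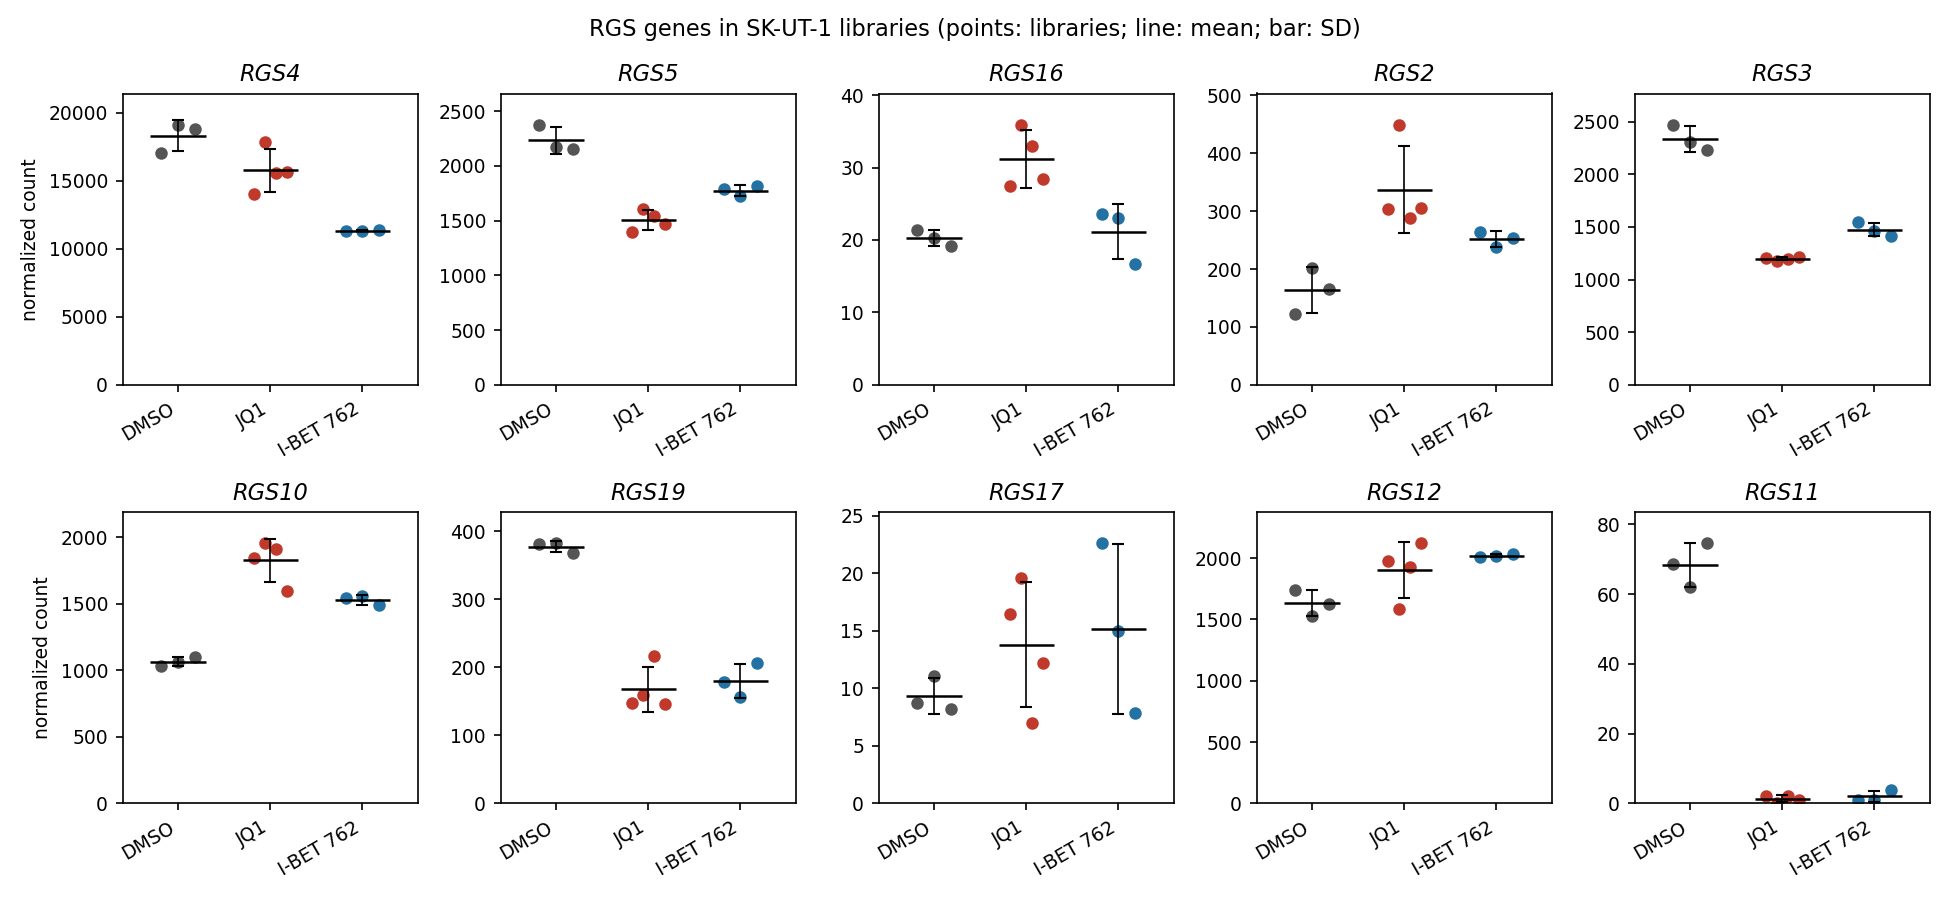
Normalized count (linear axis from 0) of each RGS gene in every library, as points, with the mean as a line and the SD as a bar, for DMSO (n = 3), JQ1 (n = 4) and I-BET 762 (n = 3). RGS11 is near 0 in every treated library, RGS3 and RGS19 lie below DMSO with both inhibitors, and RGS10 and RGS2 lie above it.

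Among the R4 members, RGS2 was the one that rose with both inhibitors. RGS2 acts mainly on Gq, and its loss raises vascular tone in mice. RGS2 (ENSG00000116741, GRCh38 chr1:192809039-192812275, plus strand) had 123, 202 and 166 normalized counts in the DMSO libraries 13, 14 and 15. It had 304, 449, 288 and 306 in the JQ1 libraries 17 to 20, and 265, 238 and 254 in the I-BET 762 libraries 21 to 23. All treated libraries were above all DMSO libraries, and JQ1 library 18 stood above the rest. The log2 difference from DMSO was 1.04 (SE 0.16), a 2.06-fold rise, with JQ1, and 0.65 (SE 0.17), 1.57-fold, with I-BET 762. Without DMSO library 13, its lowest, the I-BET 762 difference was 0.46 and no longer past 1.5-fold, and that with JQ1 was 0.85. Without JQ1 library 18 the JQ1 difference was 0.90.

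RGS16, a small inducible regulator of Gi and Gq, rose with JQ1 by the narrowest margin. RGS16 (ENSG00000143333, chr1:182598623-182604389, minus strand) had 21.3, 20.3 and 19.1 normalized counts with DMSO and 27.5, 35.9, 33.0 and 28.4 with JQ1, so that the groups were apart. With I-BET 762 it had 23.6, 23.1 and 16.7, on both sides of the DMSO values. The difference with JQ1 was 0.59 (SE 0.23), 1.51-fold, just past the threshold, and with I-BET 762 it was 0.04 (SE 0.24). Leaving out 1 library took the JQ1 call away in 4 cases, with 0.60 without DMSO library 14, 0.55 without DMSO library 15, 0.52 without JQ1 library 18 and 0.56 without JQ1 library 19. It was also lost with no filter on low values, with a pseudocount of 5 (0.51), and with libraries rescaled to equal totals (0.41) or to equal upper quartiles (0.53).

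RGS3 fell with both inhibitors. It acts on Gi and Gq and is made in several forms, the long ones with a PDZ domain. RGS3 (ENSG00000138835, chr9:113444731-113597743, plus strand) had 2469.7, 2310.3 and 2229 normalized counts with DMSO. It had 1208, 1179, 1194.5 and 1215 with JQ1, and 1542, 1459 and 1417 with I-BET 762. The 3 groups did not overlap, and the JQ1 libraries were the lowest. The log2 difference was −0.96 (SE 0.05) with JQ1, 1.95-fold lower, and −0.67 (SE 0.06) with I-BET 762, 1.59-fold lower.

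RGS4 and RGS5 lie next to each other on chromosome 1, 34318 bases apart. RGS4, the most abundant member, limits Gq and Gi signals, and RGS5 is best known in pericytes and vascular smooth muscle. RGS4 (ENSG00000117152, chr1:163068775-163076802, plus strand) had 17056, 19123 and 18800 normalized counts with DMSO and 14026, 17861, 15582 and 15663 with JQ1, and JQ1 library 18 lay within the DMSO range. With I-BET 762 it had 11327, 11311 and 11387, below every other library. RGS4 fell with I-BET 762 by 0.69 on the log2 scale (SE 0.07), 1.61-fold lower, and the difference with JQ1 was −0.22 (SE 0.07), which did not reach 1.5-fold.

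RGS5 (ENSG00000143248, chr1:163111121-163321791, minus strand) showed the other order of the inhibitors. It had 2376, 2171 and 2157.5 normalized counts with DMSO, 1396, 1604, 1545 and 1472 with JQ1, and 1785, 1724 and 1816.5 with I-BET 762, with no overlap between groups. The difference was −0.57 (SE 0.06) with JQ1, 1.49-fold lower and just short of the fold threshold, and −0.33 (SE 0.06) with I-BET 762. RGS5 passed the fold threshold with JQ1 without DMSO library 14 (−0.59), DMSO library 15 (−0.60) or JQ1 library 18 (−0.60), and with libraries rescaled to equal totals (−0.76) or upper quartiles (−0.64). Of its exon bases 8.06% are shared with a long non-coding RNA on the same strand, which was not analysed here.

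Of the R12 members, RGS10 rose with JQ1. RGS10 consists of little more than the RGS domain and acts on Gi proteins. RGS10 (ENSG00000148908, chr10:119499817-119542719, minus strand) had 1031.5, 1065 and 1102 normalized counts with DMSO, 1847, 1955, 1915 and 1593 with JQ1, and 1541, 1562 and 1487 with I-BET 762. Each JQ1 library was above each I-BET 762 library, and these were above DMSO. The difference was 0.77 (SE 0.07), 1.71-fold higher, with JQ1 and 0.52 (SE 0.07), 1.44-fold and under the fold threshold, with I-BET 762. With libraries rescaled to equal totals the JQ1 difference of RGS10 was 0.588, only just past the fold threshold.

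RGS12, a large scaffold that also binds Ras and inactive G alpha, stayed within 1.5-fold. RGS12 (ENSG00000159788, chr4:3293021-3439913, plus strand) had 1738.5, 1527 and 1628 normalized counts with DMSO, 1976, 1586, 1927 and 2122 with JQ1, and 2012, 2016 and 2032 with I-BET 762. JQ1 library 18 lay within the DMSO range, and the I-BET 762 libraries lay above it. The differences were 0.22 (SE 0.08) and 0.31 (SE 0.08). Of its 169 exon stretches of 75 bases, 3 had an exact copy elsewhere in the genome, and the other 9 members had none.

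Of the RZ members, RGS19 fell with both inhibitors. RGS19, also known as GAIP, acts on Gi and is anchored to membranes by a string of cysteines, as is RGS17. RGS19 (ENSG00000171700, chr20:64073181-64079988, minus strand) had 382, 383 and 369 normalized counts with DMSO, 148, 159.9, 216 and 146 with JQ1, and 178, 156 and 207 with I-BET 762. All treated libraries were below all DMSO libraries, and the treated groups overlapped. The difference was −1.19 (SE 0.13), 2.27-fold lower, with JQ1 and −1.07 (SE 0.14), 2.10-fold lower, with I-BET 762.

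RGS17 (ENSG00000091844, chr6:153004459-153131282, minus strand) was too low to resolve. It had 8.72, 11.1 and 8.19 normalized counts with DMSO, 16.5, 19.6, 7.003 and 12.2 with JQ1 and 22.6, 15.0 and 7.88 with I-BET 762. The groups overlapped, and the 95% interval of the JQ1 difference was −0.40 to 1.29 and that of the I-BET 762 difference −0.36 to 1.45. A change of the size seen in RGS2 lies inside these intervals, as does no change, and could not be resolved at this depth.

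RGS11, the R7 member, fell to the limit of detection. R7 proteins bind the G beta subunit GNB5 and act on Gi and Go, and RGS11 is known from retinal bipolar cells. RGS11 (ENSG00000076344, chr16:268301-275980, minus strand) had 68.8, 61.9 and 74.6 normalized counts in the DMSO libraries. With JQ1 it had 2.198, 0, 2.001 and 1.01, which are 0 to 2 reads, and with I-BET 762 it had 0.984, 1.003 and 3.94, which are 1 to 4 reads. All 4 JQ1 libraries were under the floor of 3 reads per library, so RGS11 was at least 20.8-fold lower with JQ1 than with DMSO. By summed reads, 5 with JQ1 against 220 with DMSO, it was 52.2-fold lower after scaling (exact 95% counting interval 22.05 to 162.5). With I-BET 762 a total of 6 reads stood against 220 with DMSO, a 34.6-fold lower level after scaling (exact 95% counting interval 15.6 to 95.2). Library 23 held 4 of the 6 reads, and without it the ratio was 68.9-fold (18.9 to 572.8). These intervals cover counting error only. Of the exon bases of RGS11, 20.7% lie opposite exons of FAM234A, and the setting for strand in counting is not given in the sources used here. The level of FAM234A with DMSO was 1431 ± 144 normalized counts (SD, n = 3), against 3591 ± 391 with JQ1 (n = 4) and 3513 ± 130 with I-BET 762 (n = 3), a rise (limma adjusted p = 3.55e-10 and 2.65e-09) where RGS11 fell, and its part in the RGS11 value was not tested.

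**Figure D3:**
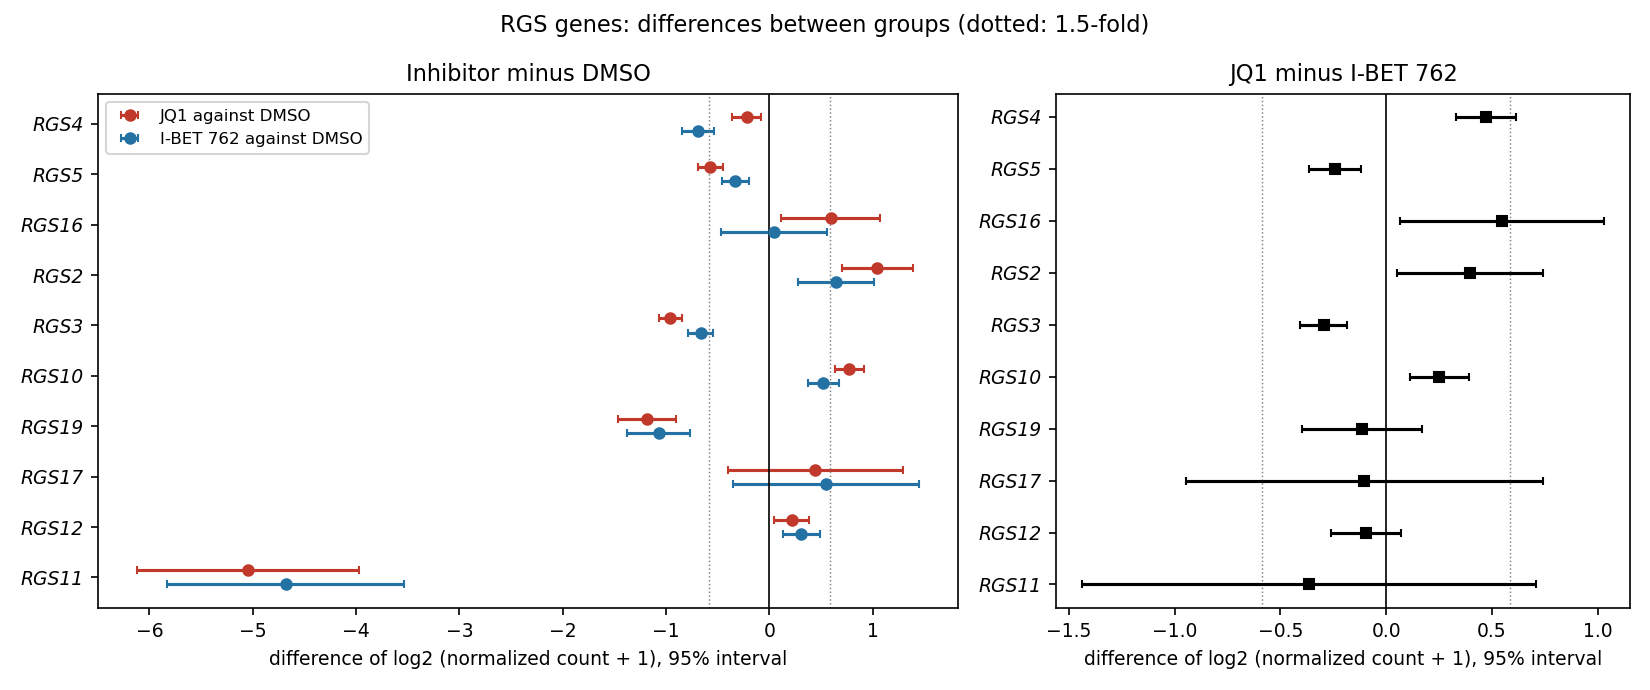
Differences of log2 (normalized count + 1) with 95% intervals for the 10 RGS genes, inhibitor minus DMSO on the left and JQ1 minus I-BET 762 on the right, with dotted lines at 1.5-fold. On the left RGS11 lies beyond −4, RGS19 near −1 and RGS2 above 0, and on the right RGS4 is the clearest difference in favour of JQ1 at 0.47.

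JQ1 and I-BET 762 were given at the same dose and for the same time, so the 2 groups were also compared directly, with 10 differences for the 10 members. None of the 10 members passed the thresholds in limma, beside 5.31% of all genes, and none did with limma-voom on recovered reads. At an unadjusted p under 0.05 there were 6, beside 38.7% of all genes, and without the fold threshold there were 4 (RGS3, RGS4, RGS5 and RGS10), beside 27.3% of all genes. Nothing is read from these counts either. Ranges of the 2 inhibitor groups did not overlap for 6 members, which held for 33.8% of all genes. RGS4 was 1.39-fold higher with JQ1 than with I-BET 762, a log2 difference of 0.47 (95% interval 0.33 to 0.61). RGS10 differed by 0.25 in the same direction (0.11 to 0.39). RGS3 and RGS5 were lower with JQ1, by −0.30 (−0.41 to −0.18) and −0.24 (−0.36 to −0.12).

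For the other members the interval of the difference reached close to 0 or across it. It ran from 0.05 to 0.74 for RGS2 and from 0.07 to 1.03 for RGS16, both higher with JQ1. RGS2 differed by 0.39 with all libraries and by 0.25 without JQ1 library 18. The interval ran from −0.26 to 0.07 for RGS12, from −0.40 to 0.17 for RGS19, from −0.95 to 0.74 for RGS17 and from −1.44 to 0.71 for RGS11, which had at most 4 reads in any treated library. These intervals leave room for differences of up to 1.5-fold or more in RGS2, RGS4, RGS11, RGS16 and RGS17, and a missed threshold does not show that the inhibitors act alike.

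The remaining genes with an RGS domain were taken from a list of 13, of which 9 had values and 5 were tested. RGS9 and RGS14 fell with both inhibitors. RGS9, which ends the light response in photoreceptors and acts in striatal neurons, is of the R7 class like RGS11. It had 331, 303 and 339 normalized counts with DMSO, 42.9, 46.8, 52.0 and 40.6 with JQ1 and 82.7, 94.2 and 83.7 with I-BET 762. The 3 groups were apart. RGS9 was 7.01-fold lower with JQ1 (log2 difference −2.81, SE 0.13, limma adjusted p = 2.33e-11) and 3.71-fold lower with I-BET 762 (−1.89, SE 0.14, adjusted p = 1.26e-08). It was also lower with JQ1 than with I-BET 762, by −0.92 (SE 0.13, limma adjusted p = 0.000112).

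RGS14, an R12 protein that binds Ras and inactive G alpha, had 601, 572 and 597 normalized counts with DMSO. It had 178, 183, 170.1 and 146 with JQ1 and 231, 193 and 186 with I-BET 762, below every DMSO library. The difference was −1.80 (SE 0.10, limma adjusted p = 2.69e-10) with JQ1 and −1.54 (SE 0.11, adjusted p = 9.66e-09) with I-BET 762, and that between the inhibitors was −0.26 (SE 0.10, adjusted p = 0.0704).

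RGS20, the RZ relative of RGS17 and RGS19, had a mean of 60.4 ± 5.23 normalized counts with DMSO (SD, n = 3), and its difference was −0.23 (SE 0.17, limma adjusted p = 0.239) with JQ1 and −0.50 (SE 0.18, adjusted p = 0.0256) with I-BET 762, short of 1.5-fold. AXIN1 and AXIN2, scaffolds of the Wnt pathway that carry an RGS domain, were also within 1.5-fold. AXIN1 differed by 0.26 with JQ1 and by 0.08 with I-BET 762, and AXIN2 by −0.24 and 0.05, with the I-BET 762 values turning to −0.013 and −0.048 when libraries were scaled to equal totals. RGS6, RGS7, RGS8 and RGS22 had between 0 and 8.11 normalized counts in every library and were not tested. RGS9 and RGS11 were thus the detected genes of the R7 class with DMSO, since RGS6 and RGS7 stayed below 3 normalized counts there.

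**Figure D4:**
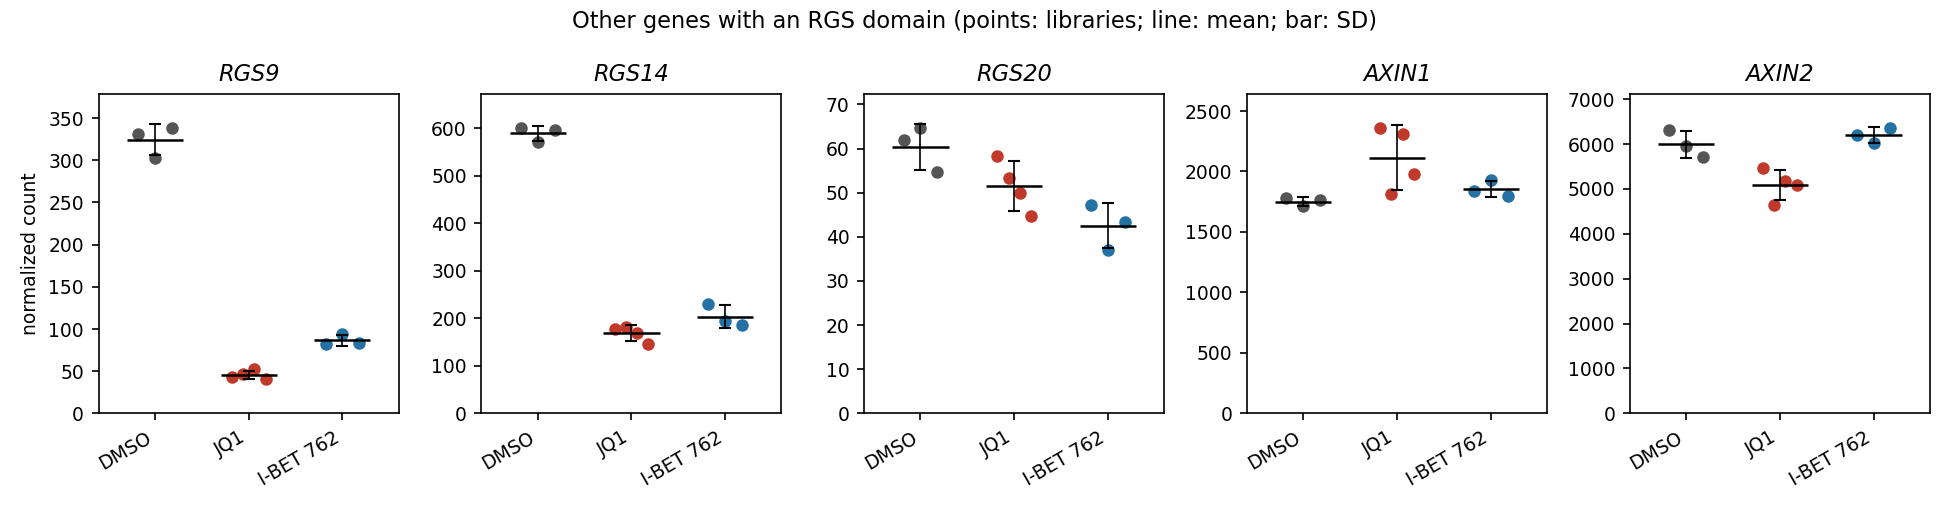
Normalized count (linear axis from 0) of RGS9, RGS14, RGS20, AXIN1 and AXIN2 in every library, as points, with the mean as a line and the SD as a bar. RGS9 and RGS14 lie well below DMSO with both inhibitors, and RGS9 is lower with JQ1 (40.6 to 52.0) than with I-BET 762 (82.7 to 94.2).

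The partners of the R7 class and the signalling genes on which RGS proteins act were read from lists of the pathway, in which 66 genes were tested, the other RGS genes above included. With JQ1, 26 passed the thresholds, 4 higher and 22 lower, and with I-BET 762, 15 passed, 2 higher and 13 lower. Without ADCY4 and PLCB1, which reached the level for testing only through their DMSO libraries and so had to be lower, 20 were lower with JQ1 and 12 with I-BET 762. Leaving out all 433 genes of that kind, 20.6% of the remaining 14406 genes were lower with JQ1 (2970) and 2303 with I-BET 762. The called share was 39.4% with JQ1, near the 36.1% of all genes, and 22.7% with I-BET 762, near the 26.9% of all genes. The median difference over the 66 was −0.23 with JQ1 and −0.08 with I-BET 762. These lists were drawn up with earlier results of these data known, so their direction is not independent evidence. All list counts below stand against the same shares of all genes, with JQ1 13.3% higher and 22.8% lower and with I-BET 762 8.96% higher and 17.9% lower.

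Of the R7 partners, GNB5, RGS9BP and RGS7BP are given here although none of these was called. GNB5, the obligate G beta partner, had 1832.5 normalized counts with DMSO, 1658 with JQ1 and 1911 with I-BET 762, differences of −0.14 and 0.06. RGS9BP, which anchors RGS9 in photoreceptors, differed by 0.20 and −0.11, and RGS7BP was at 0 to 1.85 normalized counts. GPR158, a receptor that binds R7 proteins at the membrane, was the partner called with both inhibitors. It was lower by 0.96 on the log2 scale with JQ1 (SE 0.08, limma adjusted p = 2.67e-08) and by 0.84 with I-BET 762 (SE 0.09, adjusted p = 5.23e-07).

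Of 11 G alpha subunits tested, GNAL, which encodes the olfactory stimulatory subunit, was the gene called, and the other 10 did not pass (36.1% of all genes passed with JQ1). The mean level of GNAL with DMSO was 242 ± 6.20 normalized counts (SD, n = 3), beside 41.1 ± 3.82 with JQ1 (n = 4) and 47.9 ± 11.6 with I-BET 762 (n = 3). It was 5.78-fold lower with JQ1 (limma adjusted p = 1.18e-09) and 5.05-fold lower with I-BET 762 (adjusted p = 1.56e-08). The Gi and Gq subunits on which the members act were among those not called, although GNA11, of the Gq class, missed the fold threshold with JQ1 narrowly (1.498-fold higher, limma adjusted p = 1.53e-06) and GNAI1 was 1.48-fold higher (0.00201). GNA11 and GNAI1 were chosen after their values were seen.

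Of 9 G beta and gamma subunits, 2 were higher and 4 lower with JQ1 (13.3% and 22.8% of all genes), and 2 were lower with I-BET 762 (17.9% of all genes). GNG4 was 2.98-fold lower with JQ1 (limma adjusted p = 2.04e-09) and 2.26-fold lower with I-BET 762 (2.86e-07). GNG2 was 1.67-fold lower with JQ1 and 1.501-fold lower with I-BET 762 (limma adjusted p = 1.36e-05), and the I-BET 762 call was lost without DMSO library 15 (−0.57), I-BET 762 library 21 (−0.55) or I-BET 762 library 23 (−0.58). The genes higher with JQ1 were GNB2 (1.58-fold) and GNG5 (1.55-fold), named after their values were seen. GNG5 fell short of 1.5-fold without DMSO library 14 (0.54) or JQ1 library 17 (0.57) and with equal upper quartiles (0.57), and with libraries scaled to equal totals GNB2 (0.48) and GNG5 (0.45) both did.

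Of 7 receptor kinases and arrestins, GRK5, a kinase that marks active receptors for silencing, rose and ARRB1, the arrestin that then binds them, fell. GRK5 was 1.75-fold higher with JQ1 (limma adjusted p = 2.56e-09) and 1.69-fold higher with I-BET 762 (2.97e-08). ARRB1 was 2.71-fold lower with JQ1 (limma adjusted p = 4.57e-10) and 1.99-fold lower with I-BET 762 (1.61e-07). Of 8 other G alpha regulators, ARHGEF1, an exchange factor for RhoA with an RGS-like domain that acts on the G12 class, was the gene called, 1.74-fold lower with JQ1 (limma adjusted p = 1.35e-08) and 1.55-fold lower with I-BET 762 (9.45e-07).

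Among 10 effectors, phospholipase C beta and adenylyl cyclase genes, 5 were lower with JQ1 (22.8% of all genes) and 2 with I-BET 762 (17.9% of all genes). A call of ADCY4 or PLCB1 is no support, as above, and without them 3 were lower with JQ1 and 1 with I-BET 762. ADCY7 was 5.00-fold lower with JQ1 (limma adjusted p = 9.92e-11) and 4.04-fold lower with I-BET 762 (3.06e-09). ADCY4 had a mean of 29.1 normalized counts with DMSO and 5.80 and 5.62 with JQ1 and I-BET 762.

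Of 13 receptors that act in smooth muscle, 8 passed with JQ1, 1 higher and 7 lower, and 4 with I-BET 762, 1 higher and 3 lower, against 36.1% and 26.9% of all genes passing in either direction. LPAR1, the main receptor for lysophosphatidic acid in many cell types, was 2.34-fold lower with JQ1 (limma adjusted p = 1.17e-10) and 1.61-fold lower with I-BET 762 (4.83e-07). LPAR3, another receptor for the same lipid, was 2.07-fold higher with JQ1 (limma adjusted p = 0.0017) and 2.64-fold higher with I-BET 762 (0.000367). S1PR2, a sphingosine 1-phosphate receptor coupled to the G12 class, was 2.47-fold lower with JQ1 and 2.41-fold lower with I-BET 762 (limma adjusted p = 1.62e-07 and 8.95e-07). BDKRB2, a bradykinin receptor coupled to Gq, was 2.15-fold and 2.11-fold lower (limma adjusted p = 0.000391 and 0.00115). Between the inhibitors 3 of the 66 genes passed, beside 5.31% of all genes, all lower with JQ1: RGS9, PLCB4 and F2R, the last 2 named after their values were seen. F2R, the thrombin receptor, had 43.98 ± 9.13 normalized counts with JQ1 (SD, n = 4) and 95.01 ± 7.68 with I-BET 762 (n = 3), a difference of −1.12 (SE 0.18, limma adjusted p = 0.000408). PLCB4, a phospholipase C beta activated by Gq, differed by −0.59 (SE 0.14, limma adjusted p = 0.00514), and fell short of 1.5-fold without JQ1 library 19 (−0.58), JQ1 library 20 (−0.58) or I-BET 762 library 21 (−0.48) and with a pseudocount of 5 (−0.56).

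**Figure D5:**
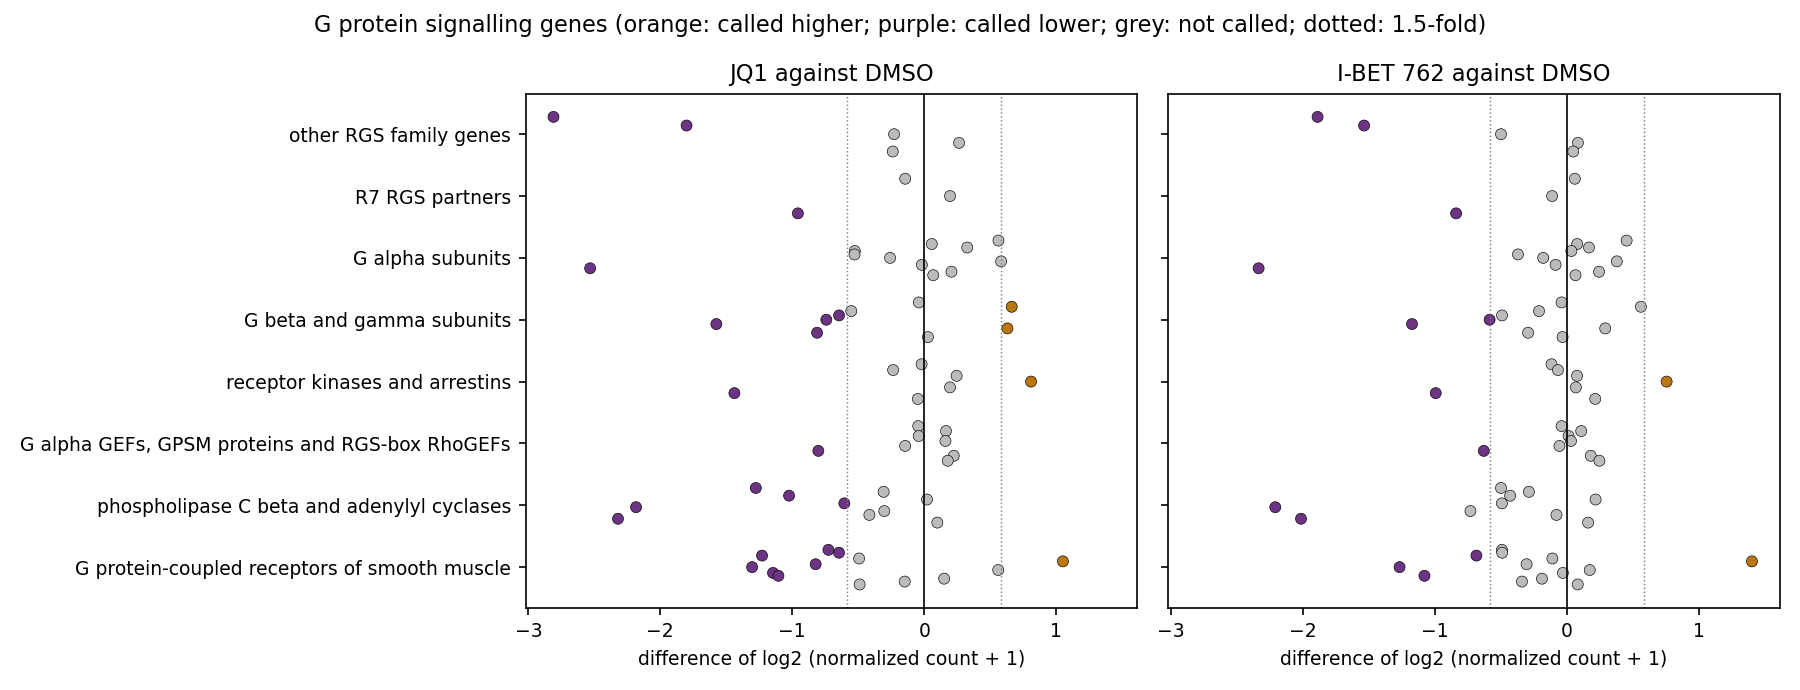
Differences of log2 (normalized count + 1) of the tested genes in 8 lists of G protein signalling, 1 point per gene, for JQ1 and I-BET 762 against DMSO, with orange for called higher, purple for called lower, grey for not called and dotted lines at 1.5-fold. Of the called genes 22 of 26 with JQ1 and 13 of 15 with I-BET 762 lie to the left (20 and 12 without ADCY4 and PLCB1), beside 63.1% and 66.7% of the calls over all genes (2970 of 4949 and 2303 of 3632 without all genes of that kind); RGS9, RGS14, GNAL and ADCY7 lie far to the left.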

How the data were processed

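RNA-seq values of SK-UT-1 cells were taken as the authors deposited them, as log2 of the normalized count plus 1 per gene symbol. Per the submitters' processing notes, FastQC 0.73, Trimmomatic, HISAT2 2.2.1 on hg38, featureCounts 2.0.3 and DESeq2 were used, on strand-specific libraries. The setting for strand is not given in the sources used here. The labels list 12 libraries, and DMSO replicate 16 and I-BET 762 replicate 24 were not analysed here. Undoing the log2 scale gave whole reads for 99.57% to 99.64% of the nonzero values checked (within 0.1 read). The highest values were not part of this check. Replicate pairs were checked, none was identical, and JQ1 library 18 differed most from its group.

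Genes with a normalized count of at least 10 in at least 3 libraries entered a limma model (version 3.58.1, R 4.3.3), all 10 libraries in 1 model with an intensity trend, and Benjamini-Hochberg adjustment over 14839 genes. The code was tested on simulated data. Lengths and positions are from Gencode V44 on GRCh38, a later release than the authors', and exact copies were sought with minimap2 2.31. Promoters were read from RefSeq tables. Python 3.11.15, pandas 2.3.3 and matplotlib 3.10.9 were used. The members and gene lists were chosen with earlier results of these data known. Genes named are the members, the other RGS genes, genes overlapping a member's exons, and from each other list up to 4 called in 1 direction with both inhibitors, ranked by the smaller difference. Named outside that rule, after their values were seen, are the uncalled R7 partners GNB5, RGS9BP and RGS7BP and the genes GNA11, GNAI1, GNB2, GNG5, F2R, PLCB4 and PLCB1. The planned comparison of protein sequences was not run. Alternatives were other pseudocounts (0.5 and 5), filters, scalings, moderation, fold thresholds, limma-voom on recovered reads, fits of the compared groups only, and leaving out each library.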

Additional observations from a re-analysis of the deposited data

Results flagged for a closer look

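Among 32 RGS and pathway genes checked in the 4 JQ1 libraries, 2 had a library far from the others. The rule was a gap past the 95% critical value of Dixon for 4 values, used only to pick values to show. About 1 in 20 genes would pass it by chance if genes were independent, which genes from the same 4 libraries need not be. Whether 2 of 32 exceeds chance was not tested, and the values are given as a description. RGS2 had 449 normalized counts in JQ1 library 18 and 288 to 306 in the other 3, a gap of 0.862 of the whole range of log2 values. ARRB1 had 213 in the same library and 240.1 to 243 in the others, a gap of 0.896 of the log2 range. That library also stood apart over all genes (chi-square per gene 20.6 to 22.1 against the other JQ1 libraries). RGS2 stayed past the thresholds with JQ1 without that library (log2 difference 0.90).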

How the results depend on the processing

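No paired analysis was possible because the replicate numbers 13 to 24 all differ between groups. Of 621 values of single members under the alternatives, 584 kept their direction and their side of the thresholds, 16 lost a call, 15 gained one and 6 changed sign. The difference itself cannot move under other filters, without an intensity trend, with the compared groups only or under other fold thresholds. Nor can it when the library left out belongs to neither group compared, so direction was fixed in advance in those settings. With 1 library left out, the members called numbered 5 to 6 with JQ1, 4 to 5 with I-BET 762 and 0 between inhibitors. Of all 14839 genes tested, 5192 to 5409, 3809 to 4027 and 603 to 875 were then called in the same order. Without the fold threshold, 8 members passed with I-BET 762 and 4 between the inhibitors. Pathway genes then numbered 49 with JQ1 and 36 with I-BET 762, and all genes 10633, 9073 and 4047 of 14839 in the 3 comparisons. With a fold over 2, members numbered 3 with JQ1 and 2 with I-BET 762, and pathway genes 14 and 9. Of the 14839 genes, 2958, 2108 and 206 passed at that fold. With a mean of at least 100, which tests fewer genes, 3359, 2338 and 418 passed. Scaling to equal totals moved the median of all genes by −0.18 with JQ1 and −0.10 with I-BET 762 and the share lower among called genes from 63.1% to 77.5% and from 66.7% to 75.5%. Under it RGS2 with I-BET 762 (0.55) was no longer called, and values near 0 with I-BET 762 changed sign in RGS16 (−0.048), AXIN1 (−0.013) and AXIN2 (−0.048). RGS20 was then called lower with I-BET 762 (−0.59). With 1 library left out, the I-BET 762 difference of RGS16 ran from −0.040 to 0.20, and the difference between inhibitors ran from −0.48 to 0.23 for RGS17 and from −0.58 to 0.073 for RGS11. The cause was not tested. RGS11, RGS16 and RGS17 had the fewest reads of the members.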
